A study of Mus musculus with 27 samples.

Results

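The p200 genes are a tandem family of interferon-inducible genes on mouse chromosome 1. They were followed here through 7 symbols of a raw count table: Ifi204, Mnda, Mndal, Ifi203, Ifi205, Pyhin1 and Aim2. All 7 were found among the 24062 gene symbols of the table. The set was chosen around Ifi204, whose level was already known to be higher in fibroblasts labelled KO than in WT fibroblasts. That comparison is therefore given below as a description, with no test of the 7 genes. Gene identifiers and positions come from the GENCODE M21 annotation of GRCm38 (mm10). There the family lies between bases 173350879 and 174031810 of chromosome 1, a stretch of 680.9 kb. Among the 7, Ifi204 (ENSMUSG00000073489.6, bases 173747293 to 173766943, minus strand) lies between Pyhin1 (173630917 to 173647928, plus strand) and Mndal (173849126 to 173942491, minus strand). Ifi203, Mnda and Ifi205 lie on the minus strand and Aim2 on the plus strand at the start of the stretch. Newer nomenclature calls Mnda Ifi211 and Pyhin1 Ifi209.

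Proteins of this family carry a pyrin domain for contact with other proteins, one or more HIN domains that bind DNA, or both. Aim2 is the sensor of double-stranded DNA in the cytosol that joins the adaptor Pycard (ASC) and caspase 1 into an inflammasome. Ifi204 is known as a nuclear and cytosolic DNA-binding protein that acts with the cGAS and STING pathway in macrophages, and as a partner of Rb, Id proteins, Ubtf and Runx2 in differentiating mesenchymal and muscle cells. The other members are less well described, and several are induced by type I interferon in macrophages and fibroblasts.

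The study measured RNA of mouse cells and tissue in 9 groups of 3 libraries each, 27 in all, on the C57BL/6 strain. Experiment 1 held early-passage embryonic fibroblasts labelled WT, KO and KO-NTD. Experiment 2 held embryonic fibroblasts with the labels Het and Het-NTD beside WT and WT-NTD. The cultures were growing and near 90% confluence when collected. Whole lungs of 10-day-old WT and Het animals made up the remaining 2 groups. The series title names FoxM1, a forkhead transcription factor of dividing cells, as the gene whose dose was lowered. The labels do not say what NTD stands for, which allele KO and Het carry, or whether the 3 libraries of a group came from separate embryos, so p-values measure the spread between libraries. Library totals ran from 29730693 to 69517834 assigned reads. The Foxm1 count did not follow the KO label: CPM, the depth-scaled read count used here, was 145, 153 and 148 in WT of experiment 1 and 150, 160 and 162 in the libraries labelled KO. In the 3 NTD groups Foxm1 was higher, between 305 and 422 CPM per library. Summed CPM of 9 fibroblast markers was 31970 to 48620 in the 21 culture libraries and 7640 to 10010 in lung. Summed CPM of 8 lung epithelial markers was 24110 to 49660 in lung and at most 7.16 in the cultures.

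The members share sequence to different degrees, and this bears most on Mnda. The first 60 coding bases of 4 members are shown because they let a reader see how close Ifi204 and Mnda are. They come from GENCODE M21 transcripts, 5′ to 3′ on the coding strand, and capitals mark bases unlike Ifi204 at the same position, counted from 1 at the A of the start codon and with no gaps.
Ifi204: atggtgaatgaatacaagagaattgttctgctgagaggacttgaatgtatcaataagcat
Mnda: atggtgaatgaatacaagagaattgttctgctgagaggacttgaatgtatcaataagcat
Ifi205: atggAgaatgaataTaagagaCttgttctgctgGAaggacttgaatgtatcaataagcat
Pyhin1: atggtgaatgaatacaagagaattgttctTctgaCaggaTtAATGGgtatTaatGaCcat
Ifi204 and Mnda did not differ at any of the 60 bases, while Ifi205 differed at 5 and Pyhin1 at 11. Of the members not printed, Ifi203 differed from Ifi204 at 20 positions, Aim2 at 25 and Mndal at 37. The Mndal start lacks a codon that the Ifi203 start has, which puts its later bases out of step when no gaps are allowed. The count of 37 therefore does not rank Mndal by likeness to Ifi204. Over whole transcripts, 72.8% of the 50-base windows of Mnda also occurred in another gene, chiefly Ifi205 and Ifi204. The share was 33.7% for Pyhin1, 20% for Ifi204, 19.6% for Mndal, 18.6% for Ifi205, 12.4% for Ifi203 and 0.742% for Aim2. How reads that fit several copies were counted is not given in the sources used here, so the split between Mnda, Ifi204 and Ifi205 is uncertain and Aim2 is the member least touched. Mndal also shares 155 bases of exon with other genes, Ifi203 among them.

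Promoter sequence was read from RefSeq entries (GRCm38.p6), which held 8 start-site windows for 6 of the 7 members. Ifi204 had no entry. The windows were searched over the 250 bases before the start and on both strands. The motifs were the interferon response motif GAAANNGAAA, the interferon gamma motif TTCNNNGAA (GAS) and the forkhead motif GTAAACA. The interferon response motif occurred in 5 of the 8 windows, in Mnda, Mndal, Ifi203 and Ifi205, against 2.98% of 32851 promoter windows of all genes. The 30 bases around the match are shown for the 4 genes because the match and its neighbours recur among them. Capitals mark the motif.
Mnda, minus strand, chr1:173913059-173913088: ccaggGAAATTGAAAgctatgaacgaaact
Ifi205, minus strand, chr1:174031865-174031894: ccaggGAAATTGAAAgctatgaacaaaact
Mndal, first start site, minus strand, chr1:173880199-173880228: ctgggGAAATCGAAAgctatgaacagtgct
Ifi203, second start site, minus strand, chr1:173942503-173942532: ctgggGAAATCGAAAgctatgaacagtgct
The Mndal and Ifi203 stretches were identical. The match shown lay between 37 and 26 bases before the start site in Mnda, Mndal and Ifi203, and 134 to 125 bases before it in Ifi205. The remaining match, 54 to 45 bases before the second Mndal start site, had other neighbouring bases and is not shown. Pyhin1 and Aim2 windows held no match. The GAS motif, found in 7.02% of all windows, and the forkhead motif, found in 3.17%, occurred in none of the 8. Because the 4 stretches shown are near identical, their matches are not separate observations.

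Levels are given as CPM on one scale over all 27 libraries, and as CPM per kb of exon where genes are compared with each other. Ifi204 was lowest in lung, at 2.25 ± 0.473 CPM (SD, n = 3) in Het and 2.42 ± 0.666 in WT. Next came WT fibroblasts of experiment 1 (6.45 ± 0.374) and of experiment 2 (8.64 ± 3.04). Then followed KO-NTD (13.5 ± 1.63), WT-NTD (13.7 ± 2.37), KO (16.9 ± 2.95), Het (17.5 ± 0.952) and Het-NTD (22.1 ± 1.05). In this order, neighbouring groups overlapped except at 2 steps, from WT lung to WT fibroblasts of experiment 1 and from Het to Het-NTD. Mnda kept to a similar range, from 0.943 ± 0.306 CPM in WT lung and 10.2 ± 0.541 in WT of experiment 1 to 27.5 ± 1.87 in Het-NTD. Mndal and Ifi203 had the opposite placement of the tissues: each was highest in lung, at 13.7 ± 0.481 and 19.6 ± 3.54 CPM in WT, and lowest in WT of experiment 1, at 1.01 ± 0.187 and 1.61 ± 0.261. Ifi205 stayed between 0.401 and 1.29 CPM on average in all 9 groups. Pyhin1 averaged at most 0.787 CPM in fibroblasts and 5.61 to 6.13 in lung. Aim2 averaged at most 0.757 CPM in fibroblasts and 2.85 to 2.94 in lung.

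**Figure D1:**
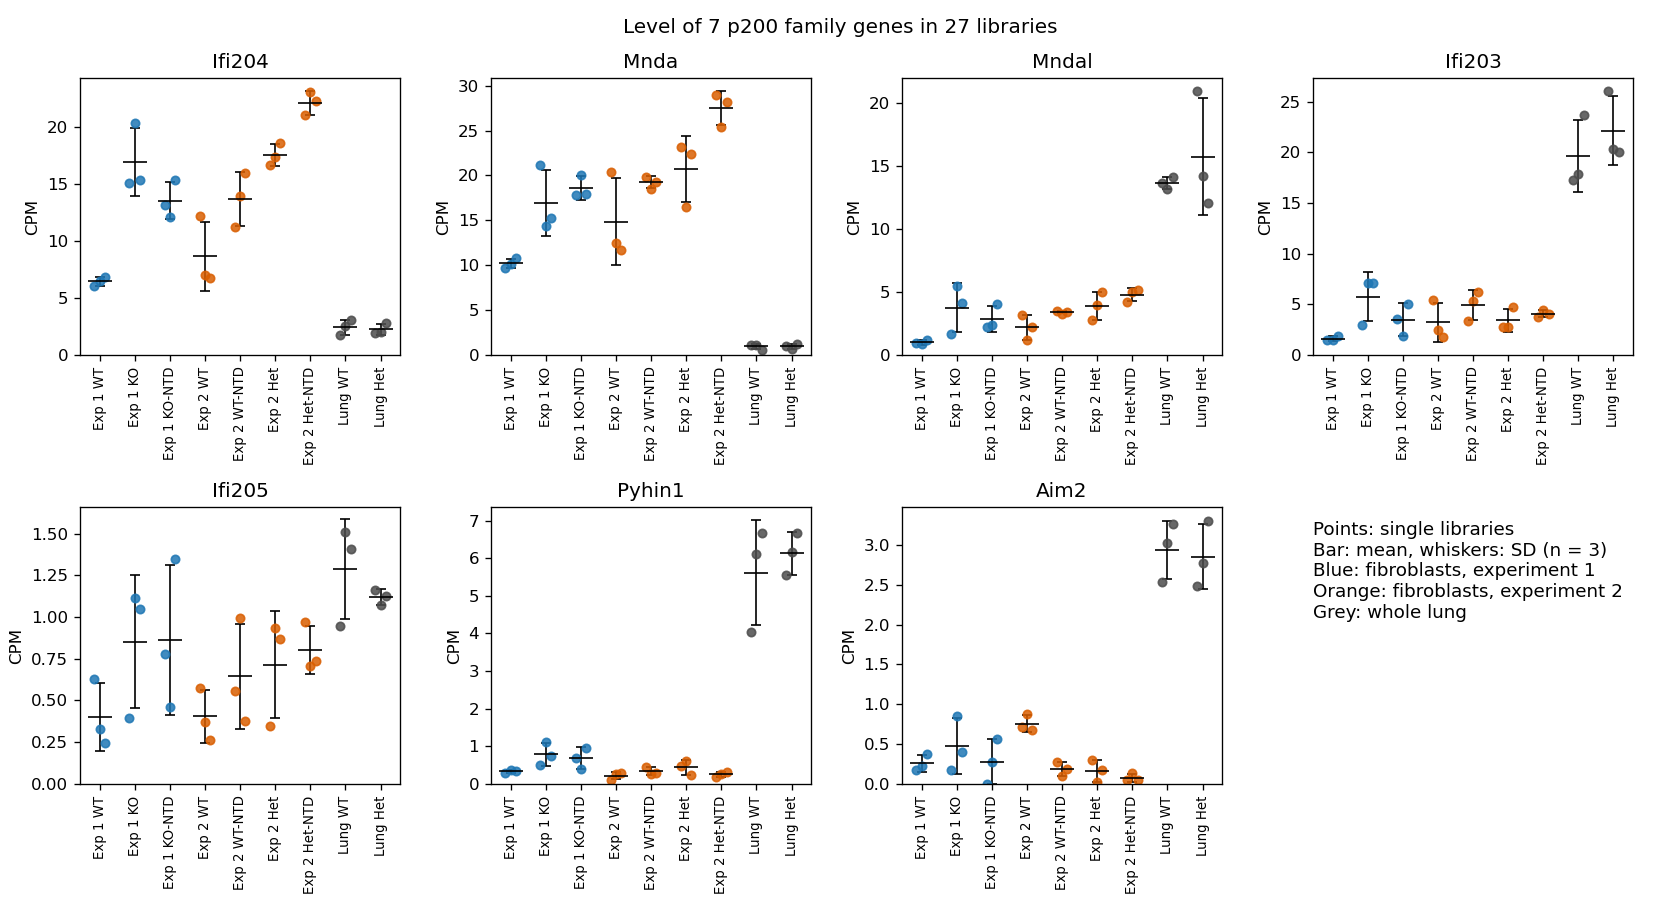
CPM of each member (vertical axes, linear, each panel on its own scale) in the 9 groups (horizontal axis). Points are libraries, bars the mean and whiskers the SD of 3 libraries. Ifi204 and Mnda stand lowest in lung, and Mndal, Ifi203, Pyhin1 and Aim2 stand highest there.

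Per kb of exon, Mnda was the leading member in all 7 fibroblast groups, with means from 5.71 CPM per kb in WT of experiment 1 to 15.4 in Het-NTD. Ifi204 was second, with means from 1.81 to 6.21 CPM per kb. In lung the leading members were Mndal (3.77 CPM per kb in WT, 4.34 in Het) and Ifi203 (2.93 and 3.30), ahead of Pyhin1 (1.58 and 1.73). The family's summed CPM, not divided by exon length, differed less between tissues than its make-up. It was 46.5 ± 5.85 CPM in WT lung and 30.3 ± 10.7 in WT fibroblasts of experiment 2. The order of the tissues depends on this scale. Summed per kb of exon, with all annotated exon bases of a gene as its length, the mean was higher in WT fibroblasts of experiment 2 than in WT lung. With the longest transcript as the length, it was higher in WT lung, where Mndal then stood at 6.742 and Ifi203 at 5.234 CPM per kb. Mnda alone stood at 8.308 ± 2.725 CPM per kb in those fibroblasts and 0.5285 ± 0.1713 in WT lung. The sums were not tested. Of the sum not divided by exon length, Ifi204 and Mnda made up 28.5% and 49.3% in WT fibroblasts of experiment 2. In WT lung they made up 5.2% and 2.1%. Per kb of exon, the share of Mnda in those fibroblasts was larger.

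**Figure D2:**
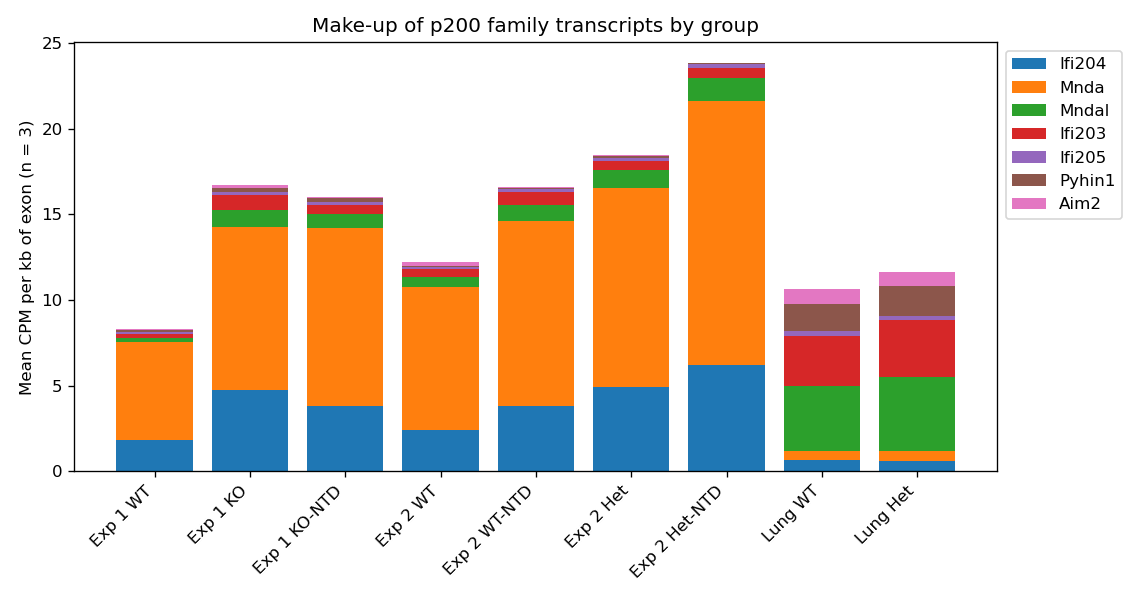
Stacked mean CPM per kb of exon (vertical axis) of the 7 members in each group (horizontal axis), 3 libraries a group. Mnda and Ifi204 fill most of the fibroblast bars, and Mndal, Ifi203 and Pyhin1 most of the lung bars.

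In experiment 1, all 7 members had a higher mean in the libraries labelled KO than in WT. This is the comparison the set was chosen on, so the values are descriptive. Ifi204 stood at 6.07, 6.45 and 6.82 CPM in WT and at 15.1, 20.3 and 15.3 in KO, a fitted ratio of 2.66. Mnda stood at 9.67, 10.2 and 10.8 CPM in WT and at 21.1, 14.4 and 15.3 in KO. The KO libraries of both genes lay above all WT libraries. Mndal stood at 0.922, 0.877 and 1.22 CPM in WT and 1.66, 5.47 and 4.13 in KO. Ifi203 stood at 1.44, 1.48 and 1.91 CPM in WT and 2.93, 7.14 and 7.12 in KO. For these genes KO library 1 was the closest to WT. Pyhin1 means were 0.337 and 0.787 CPM, Ifi205 means 0.401 and 0.852, and Aim2 means 0.259 and 0.477. Groups did not overlap for 5 of the 7, all but Ifi205 and Aim2, and for 18.4% of all genes tested. Nothing is read from this count, since the rule used the same contrast. Across all 14551 genes tested, edgeR's quasi-likelihood test with Benjamini-Hochberg adjustment called 0.447% at an adjusted p below 0.05, the threshold used throughout.

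KO library 1 also differed from the other KO libraries in other genes. The summed CPM of 14 macrophage markers, such as Csf1r, Lyz2 and C1qa, was 63.8 to 107 in the WT libraries, 13.7 in KO library 1, and 427 and 292 in KO libraries 2 and 3. The mean log2 CPM of 39 interferon-stimulated genes was 1.24 to 1.60 in WT, 1.24 in KO library 1, and 2.98 and 3.005 in KO libraries 2 and 3. In KO library 1, with the fewest macrophage transcripts of the 6 WT and KO libraries, Ifi204 was 15.1 CPM and Mnda 21.1, above the 3 WT libraries. Mndal, Ifi203, Ifi205, Pyhin1 and Aim2 had their lowest KO value in that library, and so, by a small margin, did Ifi204. In bulk RNA, fewer cells of a type and less RNA per cell cannot be told apart.

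KO-NTD against WT used the same WT libraries as the choice of the set, so it is not independent of it. KO-NTD values of Ifi204 were 13.1, 12.1 and 15.3 CPM, all above the 6.07 to 6.82 of WT. Ifi204 was higher by 1.07 ± 0.14 on the log2 scale (± SE, edgeR adjusted p = 0.0131). Mnda stood at 17.8, 20.1 and 17.9 CPM and was higher by 0.87 ± 0.14 (edgeR adjusted p = 0.0454). These 2 of 7 members compare with 0.44% of all genes called. Mndal (1.51 ± 0.44) and Pyhin1 (1.03 ± 0.42) did not overlap between groups, as was so for 20.9% of all genes, but were not called, with edgeR adjusted p = 0.249 and 0.393. Ifi203 (1.12 ± 0.43), Ifi205 (1.11 ± 0.56) and Aim2 (0.12 ± 1.03) overlapped. The calls were sensitive to single libraries. Ifi204 was not called without WT library 1, 2 or 3 or KO-NTD library 1 (edgeR adjusted p = 0.0871, 0.0738, 0.0574 and 0.0521), and Mnda was not called without any 1 of the 6 libraries (0.12 to 0.24). The macrophage sum was 38.8, 11.02 and 311 CPM in the KO-NTD libraries, and with a macrophage score as covariate Ifi204 was 1.12 higher (edgeR adjusted p = 0.000946) and Mnda 0.80 higher (0.00295).

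KO-NTD against KO asked whether the NTD label went with a change on the KO background. None of the 7 members was called, against 0.00687% of all genes, which is a single gene. At an unadjusted p below 0.05, 1 member passed, Ifi204, as did 6.68% of all genes, and DESeq2 called 0 members. The KO libraries had a part in choosing the set for high values, so a lower Ifi204 beside them is not independent of that choice. Ifi204 was 0.34 ± 0.14 lower in KO-NTD (edgeR adjusted p = 0.714), and its values of 12.1 to 15.3 and 15.1 to 20.3 CPM overlapped. For Mnda the difference was 0.12 ± 0.14 and for Ifi203 -0.74 ± 0.42. All 7 members overlapped between KO-NTD and KO, while 11.8% of all genes did not.

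Experiment 2 used libraries outside the KO against WT contrast, although the set was chosen with earlier results of all these data known. In Het against WT fibroblasts, Ifi204 rose and Aim2 fell. Ifi204 stood at 12.2, 7.001 and 6.76 CPM in WT and at 16.7, 17.4 and 18.6 in Het. The groups did not overlap, and the difference was 1.02 ± 0.20 on the log2 scale, a ratio of 2.03 (edgeR adjusted p = 0.0062). Aim2 stood at 0.713, 0.879 and 0.679 CPM in WT and at 0.295, 0.0259 and 0.174 in Het. This rests on 82 reads in the 3 WT libraries and 19 in the 3 Het libraries. The groups did not overlap, and Aim2 was lower by 2.17 ± 0.58 (log2 -2.17, edgeR adjusted p = 0.024). These 2 calls, 1 higher and 1 lower, stand beside 16.5% of all genes called in this comparison, and 33.8% of all genes did not overlap. The count of 2 in 7 is therefore no result about the set.

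The other 5 members did not pass the test in Het against WT, and each overlapped between groups. Mndal stood at 3.15, 1.20 and 2.19 CPM in WT and at 2.78, 3.93 and 5.01 in Het (0.84 ± 0.29, edgeR adjusted p = 0.0664). Mnda stood at 20.4, 12.4 and 11.6 CPM in WT and at 23.2, 16.5 and 22.4 in Het (0.48 ± 0.19, edgeR adjusted p = 0.116). The log2 differences of Pyhin1 (0.98 ± 0.49), Ifi205 (0.81 ± 0.47) and Ifi203 (0.08 ± 0.38) were also not called. WT library 1 had the highest value of its group for Ifi204, Mnda, Mndal, Ifi203 and Ifi205. Without it, 3 members were called higher, Mnda and Mndal beside Ifi204. Ifi204 was called without any 1 of the 6 libraries, with log2 differences of 0.88 to 1.34. Aim2 was not called without WT library 2, Het library 2 or Het library 3 (edgeR adjusted p = 0.069, 0.0649 and 0.0772).

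**Figure D3:**
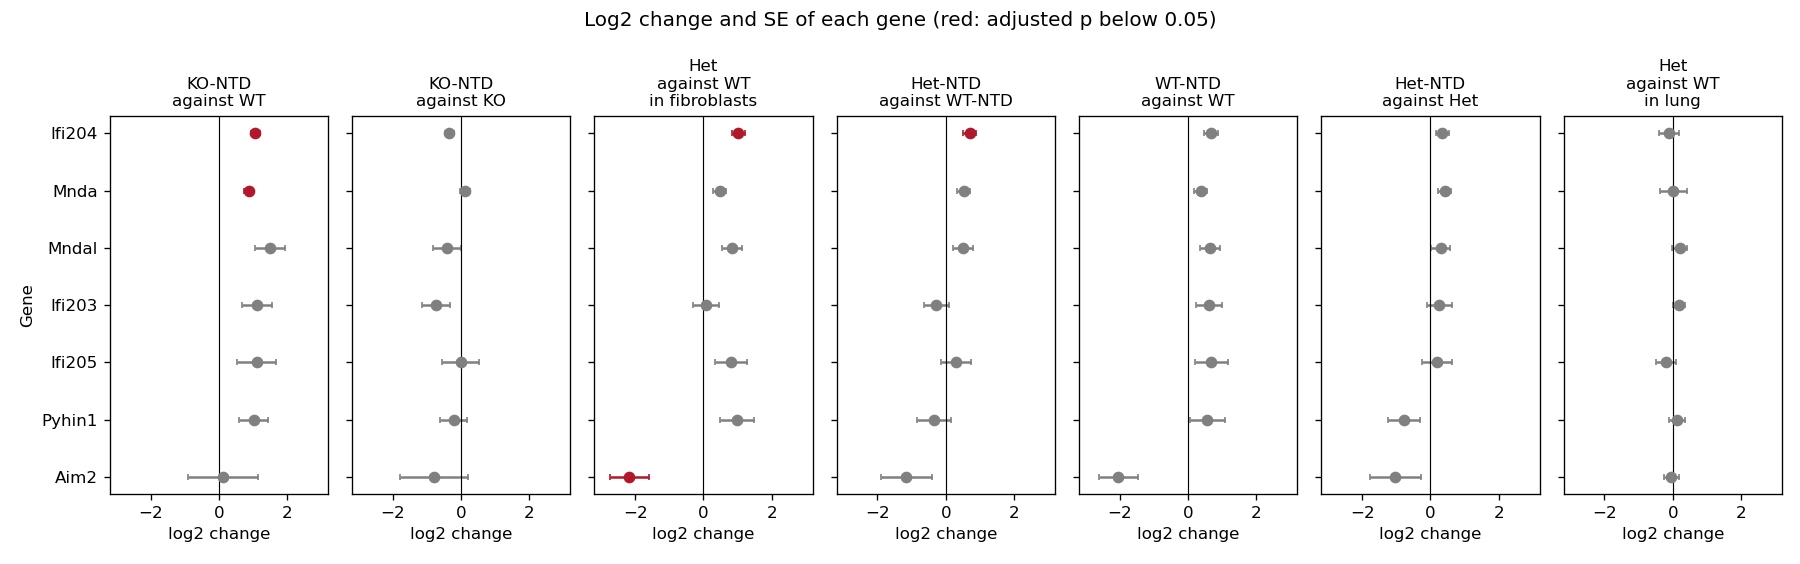
Log2 change of each member (points) with its SE (whiskers) in 7 comparisons, 3 libraries a group. Red points passed an adjusted p of 0.05 in edgeR's test: Ifi204 in 3 panels, Mnda in 1 and Aim2 in 1.

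Macrophage markers moved with genotype in experiment 2. Their summed CPM was 187 to 225 in WT, 76.6 to 183 in WT-NTD, 12.6 to 78.2 in Het and 13.1 to 19.0 in Het-NTD, with none of the 14 markers at 0 in all libraries of a group. In Het against WT, 10 of 14 markers fell and none rose (median log2 -2.40), beside 16.5% of all genes called in either direction. Those of lowest p were Cd68 (-1.31), Emr1 (-3.09), Csf1r (-2.43) and Mrc1 (-2.42). Over the 12 libraries, the macrophage score and log2 Aim2 had a Pearson r of 0.863, and the score and log2 Ifi204 one of -0.835. The r was also negative for Mndal (-0.703), Ifi205 (-0.689), Mnda (-0.601), Pyhin1 (-0.232) and Ifi203 (-0.165). These r values describe libraries that share genotype and depth. With the score as covariate the Het difference of Aim2 was -0.10 (edgeR adjusted p = 0.98) and that of Ifi204 was 0.85 (0.211), neither called. The score itself did not overlap between the groups, at 2.89 to 3.13 in WT and -0.97 to 1.61 in Het, so genotype and macrophage transcripts cannot be told apart in these 6 libraries. In the 9 libraries of experiment 1, the r with the score was 0.143 for Ifi204, -0.431 for Mnda, 0.557 for Ifi203 and 0.532 for Aim2. There it was 0.616 for Ifi205, 0.515 for Pyhin1 and 0.432 for Mndal.

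**Figure D4:**
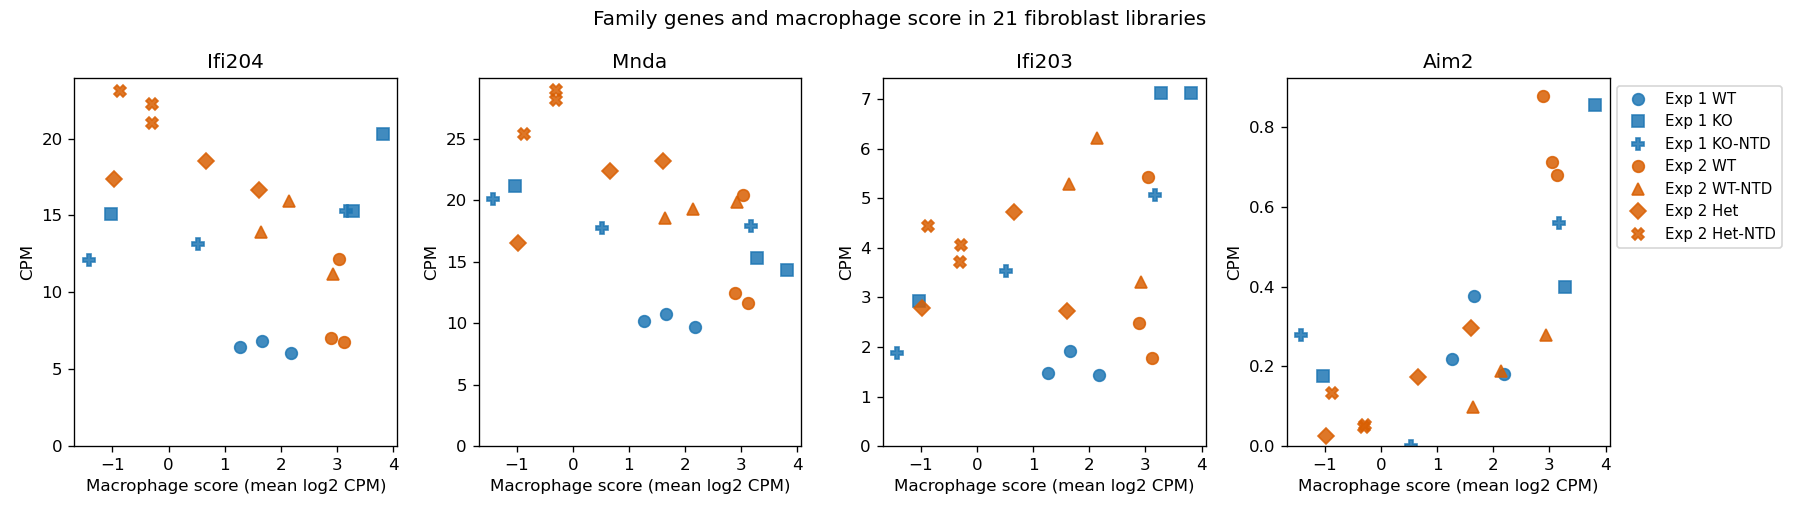
CPM of 4 members (vertical axes) against the macrophage score, the mean log2 CPM of 14 markers (horizontal axis), in 21 fibroblast libraries. In experiment 2 (orange) Ifi204 is highest where the score is low and Aim2 is highest where it is high. In experiment 1 (blue) KO libraries with low and with high scores all lie above WT for Ifi204 and Mnda.

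Het-NTD against WT-NTD used the 6 remaining libraries of experiment 2. Ifi204 stood at 11.2, 13.9 and 15.9 CPM in WT-NTD and at 20.98, 23.1 and 22.3 in Het-NTD, with no overlap. It was higher by 0.70 ± 0.19 (edgeR adjusted p = 0.0399), the single member called, beside 11.5% of all genes. Mnda did not overlap either, at 18.5 to 19.9 CPM in WT-NTD and 25.4 to 29.0 in Het-NTD, but was not called (0.52 ± 0.19, edgeR adjusted p = 0.11). Mndal at 3.28 to 3.46 against 4.22 to 5.13 CPM behaved likewise (0.51 ± 0.28, edgeR adjusted p = 0.289). Of all genes tested, 32.1% did not overlap between these groups, so the lack of overlap in these members is no result about the set. Aim2 was near its floor in both groups, with 18 and 10 reads over 3 libraries. The Ifi204 call was lost without any 1 of the 6 libraries (edgeR adjusted p = 0.0513 to 0.123), and with the macrophage score as covariate (0.52, adjusted p = 0.596). The score did not overlap between these groups, at 1.64 to 2.93 in WT-NTD and -0.87 to -0.29 in Het-NTD. Genotype and macrophage transcripts therefore cannot be told apart here either.

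The NTD label by itself went with no called change of a member in experiment 2. In WT-NTD against WT, 0 of 7 members were called, beside 0.014% of all genes (2 genes). At an unadjusted p below 0.05, 3 members passed, as did 7.37% of all genes, and DESeq2 called 0 members. Ifi204 at 11.2 to 15.9 against 6.76 to 12.2 CPM overlapped (0.67 ± 0.20, edgeR adjusted p = 0.654). Aim2 at 0.0970 to 0.279 against 0.679 to 0.879 CPM did not (-2.04 ± 0.58, edgeR adjusted p = 0.654), and Mndal at 3.28 to 3.46 against 1.20 to 3.15 CPM did not (0.64 ± 0.29). Of all genes tested, 9.33% did not overlap between WT-NTD and WT. Without WT library 1, Ifi204 and Mnda were called higher in WT-NTD (edgeR adjusted p = 0.00778 and 0.0407).

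In Het-NTD against Het, 0 members were called by edgeR or DESeq2, beside 0.014% of all genes (2 genes) by edgeR. At an unadjusted p below 0.05, 0 members passed, while 6.26% of all genes did. Ifi204 at 20.98 to 23.1 against 16.7 to 18.6 CPM did not overlap (0.34 ± 0.19, edgeR adjusted p = 0.837). Mnda at 25.4 to 29.0 against 16.5 to 23.2 CPM did not overlap either (0.42 ± 0.19, edgeR adjusted p = 0.793). Of all genes tested, 16.3% did not overlap between these groups. The interaction of NTD and genotype, a test of whether the NTD difference itself differed between Het and WT, called 0 members by edgeR or DESeq2 and 0 of all genes (0% of 14314) by edgeR. For Ifi204 it was -0.33 ± 0.27 and for Aim2 1.02 ± 0.99. No member passed it at an unadjusted p below 0.05, while 4.97% of all genes did.

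In whole lung, Het and WT animals had overlapping values of all 7 members, while 4.38% of all genes did not overlap. Ifi204 stood at 1.71, 2.52 and 3.03 CPM in WT lung and 1.95, 2.01 and 2.80 in Het lung (-0.11 ± 0.29). Ifi203 stood at 17.3, 17.9 and 23.7 CPM in WT and 26.1, 20.3 and 20.1 in Het (0.17 ± 0.18). Mndal stood at 13.6, 13.2 and 14.2 CPM in WT and 20.9, 14.2 and 12.1 in Het (0.20 ± 0.22). Aim2 stood at 2.54, 3.02 and 3.26 CPM in WT and 2.49, 2.78 and 3.29 in Het (-0.04 ± 0.22). The log2 differences of Mnda (0.02 ± 0.39), Ifi205 (-0.20 ± 0.29) and Pyhin1 (0.13 ± 0.22) were of the size of their SE or smaller. No member was called by edgeR or DESeq2, beside 0% of all 15933 genes called by edgeR. No member passed an unadjusted p of 0.05 either, while 0.715% of all genes did. Whether the Het difference itself differed between lung and fibroblasts was tested in a joint fit, where 1.12% of all genes were called. The difference was -1.12 ± 0.37 for Ifi204 (edgeR adjusted p = 0.217) and 2.13 ± 0.62 for Aim2 (adjusted p = 0.142). Neither of these nor any other member was called. At an unadjusted p below 0.05, 2 members passed, as did 11.3% of all genes, and DESeq2 called 1 member.

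WT lung and WT fibroblasts of experiment 2 differed in all 7 members, in a comparison where 75.6% of all genes were called. Ifi204 was lower in lung by 1.85 ± 0.27 (log2 -1.85, edgeR adjusted p = 6.86e-05) and Mnda by 3.98 ± 0.34 (log2 -3.98, adjusted p = 6.49e-07). Pyhin1 was higher in lung by 4.62 ± 0.41 (adjusted p = 9.13e-07), Mndal by 2.64 ± 0.34, Ifi203 by 2.59 ± 0.37, Aim2 by 1.94 ± 0.41 and Ifi205 by 1.65 ± 0.42. None of the 7 overlapped, and neither did 82% of all genes tested, so neither count is a result about the set. The median of all genes was 0.14 higher in lung on this scale. Tissue and preparation batch cannot be told apart here. Macrophage markers summed to 1696 to 2174 CPM in WT lung against 187 to 225 in these fibroblasts, and T cell, B cell and neutrophil markers to 14.1 to 21.8, 44.4 to 93.2 and 35.2 to 239 CPM against at most 1.39. Their part in the higher lung levels of Pyhin1, Mndal, Ifi203 and Aim2 was not tested.

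Of 5 further p200 symbols in the table, AI607873 (Ifi207) was the one with enough reads for testing in fibroblasts. It stood at 2.19, 1.73 and 2.24 CPM in WT of experiment 2 and at 1.16, 0.751 and 0.955 in Het, and fell by 1.10 ± 0.26 (log2 -1.10, edgeR adjusted p = 0.0148). In experiment 1 it stood at 0.766, 5.38 and 3.14 CPM in KO against 0.603 to 1.01 in WT, with KO library 1 inside the WT range. Pydc3 (Ifi208), Pydc4 (Ifi213), Ifi202b and BC094916 had at most 3 reads in any fibroblast library. In lung, Pydc3 averaged 4.09 ± 0.758 CPM in WT and 4.45 ± 0.822 in Het. Ifi202b was uneven in WT lung, with 0, 110 and 18 reads. Protein-coding genes within 1 Mb of the family were not called: of 37 in the table, 11 could be tested in Het against WT fibroblasts, 0 higher and 0 lower, with a median log2 difference of -0.09.

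Genes of the pathways around the family were counted from lists made with earlier results of these data known. In Het against WT fibroblasts, where 16.5% of all genes were called, 0 of 38 tested interferon-stimulated genes rose and 5 fell, with a median of -0.20 beside 0.01 for all genes. The chemokine Cxcl10 fell by 2.03 ± 0.35 (log2 -2.03), the RNA sensor Ifih1 by 0.91 ± 0.23 (log2 -0.91) and the antiviral GTPase Mx2 by 2.33 ± 0.62 (log2 -2.33). Among 11 inflammasome genes, the cytokine Il18 rose by 1.25 ± 0.21, and the kinase Nek7 (-0.16 ± 0.04), the adaptor Pycard (-1.40 ± 0.44) and Nlrp1b (-2.99 ± 0.91) fell. Among 16 genes of cytosolic DNA sensing, Tmem173 (STING, 0.17 ± 0.04) and Ikbke (0.35 ± 0.10) rose, and Mb21d1 (cGAS, -0.37 ± 0.10) and Samhd1 (-0.26 ± 0.04) fell. Among 13 genes for described partners of p200 proteins, Runx2, the osteoblast transcription factor (0.36 ± 0.06), and Myc (0.19 ± 0.06) rose, and Id2 (-1.09 ± 0.25) fell. Of 19 interferon signalling genes, the receptor Ifngr1 (-0.27 ± 0.05) and the kinase Jak1 (-0.12 ± 0.04) fell and 0 rose. The macrophage sums given above differ between the same groups, and their part in these lists was not tested. With 16.5% of all genes called, these counts of 2 to 5 genes a list, in mixed directions for 3 of the 5 lists, are given as values and not as results about the pathways.

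In experiment 1 no gene of these 5 lists was called. In KO against WT, 37 of 38 interferon-stimulated genes had a log2 difference above 0, as did 51.9% of all genes. Their median was 1.10 beside 0.01 for all genes, and none was called. In KO-NTD against WT, 33 of 38 were above 0, beside 50.8% of all genes, with a median of 0.49, and none was called. Genes measured in the same libraries are not separate observations. Of the 14 macrophage markers, 14 were above 0 in KO against WT (median 1.30) and 10 in KO-NTD against WT (median 0.15). Their part was not tested. The mean log2 CPM of the 39 genes ran from 1.24 to 3.005 across the KO libraries and from 1.19 to 2.49 across the KO-NTD libraries, while that of WT ran from 1.24 to 1.60. In experiment 2, where Ifi204 was also higher in Het, this mean was 1.76 to 2.02 in Het and 1.85 to 2.65 in WT. In Het-NTD against WT-NTD, 0 of 38 rose and 5 fell, with a median of -0.19, beside 11.5% of all genes called. In lung, 0 of 39 were called between Het and WT (median -0.01).

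Members differed in how closely they followed Ifi204 across the 21 fibroblast libraries. After the mean of each experiment was subtracted, log2 Ifi204 had a Pearson r of 0.879 with Mndal, 0.844 with Mnda, 0.719 with Ifi203, 0.663 with Ifi205, 0.445 with Pyhin1 and -0.356 with Aim2. Within experiment 1 the r of Ifi204 with Aim2 was 0.228 (9 libraries) and within experiment 2 it was -0.810 (12 libraries). These are descriptions: the libraries share genotypes, and Ifi204, Mnda and Mndal share sequence. The r values of Aim2 and Pyhin1 rest on few reads, 0 to 56 and 4 to 73 per fibroblast library. Among 11813 genes, those most like Ifi204 over the 21 libraries were Sec16b (r = 0.915), Lhfpl2 (0.901), Pcdhga8 (0.890), Mlkl, the effector of necroptosis (0.887), Serpinf1 (0.886), Ms4a4d (0.880), Sytl4 (0.879) and Mndal (0.879). The order depends on the measure: by Spearman's rho 3 of these 8 stayed among the first 8, and rho was 0.708 for Mlkl and 0.760 for Lhfpl2. Over all 27 libraries 6 of the 8 stayed, and the r of Pcdhga8 was 0.380. Most like Mnda were Srpx2 (0.912), Csgalnact1 (0.863) and the matrix protease Mmp19 (0.854). Most like Ifi203 were the nuclear body protein gene Sp100 (0.905), the class I histocompatibility gene H2-K1 (0.903) and the matrix gene Dpt (0.901). H2-K1 (0.857) and H2-D1 (0.856) followed Ifi204 in likeness to Mndal.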

How the data were processed

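RNA was extracted on columns and made into TruSeq v2 libraries, per the labels' protocols. The deposited table holds raw read counts per gene symbol for 27 libraries, made by the authors with TopHat2 2.0.14, Bowtie2 2.2.6 and featureCounts 1.4.6 on mm10, per the submitters' processing notes. Strand and multi-mapping settings are not given in the sources used here.

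The 7 genes and all lists were chosen with earlier results of these data known. Counts were fitted with edgeR 4.0.16 in R 4.3.3 (TMM, filterByExpr, robust quasi-likelihood F test, two-sided, Benjamini-Hochberg over all genes tested), separately for experiment 1 (9 libraries, 14551 genes), experiment 2 (12 libraries, 14314 genes), lung (6 libraries, 15933 genes) and a joint fit of WT and Het fibroblasts of experiment 2 with lung (12 libraries, 16364 genes). All 7 genes passed each filter. A call is an adjusted p below 0.05. CPM levels use TMM over 27 libraries, and log2 CPM a prior count of 2. The fits were tested on simulated data. All 7 genes are named in every comparison. Of each list up to 4 genes with the lowest p are named, and likeness names the 8 genes with the highest r for Ifi204 and 3 for other members above 1 CPM. Alternatives were DESeq2 1.42.0, its size factors in edgeR, no filter, a block for the replicate number, the 2 groups alone, a macrophage score as covariate and each library left out in turn. The lowest chi-square per degree of freedom between libraries of a group was 5.88, so none looked like a repeat deposit. Library totals were 47380829 to 69517834 in experiment 1, 30247046 to 46625753 in experiment 2 and 29730693 to 50326730 in lung.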

Additional observations from a re-analysis of the deposited data

How the results depend on the processing

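Scaling by DESeq2's size factors changed no count of called members. With DESeq2 itself, 3 members were higher in KO-NTD against WT, 2 in Het against WT, 2 in Het-NTD against WT-NTD and 1 in the lung minus fibroblast difference. With no filter, 0 were higher in Het-NTD against WT-NTD. With the 2 groups alone, 2 were higher there and 0 were lower in Het against WT. With the replicate block, 1 was higher in KO-NTD against WT and 2 in Het against WT, Ifi204 in Het-NTD against WT-NTD had an adjusted p of 0.0712, and Aim2 in KO-NTD against WT was -0.29. Whether the replicate numbers pair libraries is not settled. In WT-NTD against WT, each WT-NTD library was most like the WT library of its own number (r = 0.233, 0.439 and 0.071). In every other comparison some library was most like a library of another number. In no comparison were all 3 same-numbered correlations above 0.1. With the macrophage score, 4 were higher in KO-NTD against WT, and 0 were higher in Het against WT and in Het-NTD against WT-NTD and 0 lower in Het against WT. Under it these log2 differences changed sign, none of them called: Mndal 0.022, Ifi205 0.44 and Pyhin1 0.059 (KO-NTD against KO), Ifi203 -0.17 and Ifi205 -0.43 (Het against WT), Ifi205 -0.14 and Aim2 0.21 (Het-NTD against Het), and Ifi205 -0.86 and Aim2 1.48 (Het-NTD against WT-NTD). The causes were not tested.

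Leaving out 1 library gave 0 to 1 higher members in KO-NTD against WT, 1 to 3 higher and 0 to 1 lower in Het against WT, 0 to 2 higher in WT-NTD against WT, 0 to 0 in Het-NTD against WT-NTD and 0 to 1 in the lung minus fibroblast difference (higher without Het fibroblast library 1). Sign changes arose for uncalled members: Aim2 -0.94 to 0.70 in KO-NTD against WT, Ifi205 -0.48 to 0.29 and Pyhin1 -0.54 to 0.12 in KO-NTD against KO, Ifi203 -0.23 to 0.67 in Het against WT, Ifi205 -0.16 to 0.43 in Het-NTD against Het, Mnda -0.26 to 0.19 in the interaction, Ifi203 -0.50 to 0.40 in the lung minus fibroblast difference, and in lung Ifi204 -0.30 to 0.085, Mnda -0.23 to 0.24, Mndal -0.066 to 0.38, Pyhin1 -0.06 to 0.27 and Aim2 -0.14 to 0.035.

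Counts over all genes moved more. DESeq2 called 449 genes in KO against WT (edgeR 65), 26 in KO-NTD against KO (1), 378 in KO-NTD against WT (64), 30 in WT-NTD against WT (2), 23 in Het-NTD against Het (2), 3 in the interaction (0), 1 in lung (0) and 711 in the lung minus fibroblast difference (184). The 2 groups alone gave 36, 100 and 1389 in KO, KO-NTD and Het against WT, 1 in WT-NTD against WT and 20 in Het-NTD against Het. The macrophage score gave 449, 238 and 472 in KO, KO-NTD and Het against WT, 2 in KO-NTD against KO, 1 in Het-NTD against Het and 166 in Het-NTD against WT-NTD. No filter gave 2 in KO-NTD against KO and 5 in WT-NTD against WT, and the replicate block 4 in WT-NTD against WT, 1 in Het-NTD against Het and 79 in the lung minus fibroblast difference. Depth limits Aim2, Pyhin1 and Ifi205 in fibroblasts most, with 10 to 146 reads over the 3 libraries of a group.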
